A study of Mus musculus with 16 samples.

Results

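Type 1 conventional dendritic cells (cDC1) of Wdfy4 KO mice were compared with those of Wdfy4 Het mice in the lymph node that drains a tumour. The comparison rests on the 8 arrays whose sample titles name cDC1 of the draining node, 4 KO and 4 Het, out of 16 arrays in the series. All mice were C57BL/6, and all had received, 6 days earlier, flank tumours of a type that regresses. The Het mice kept 1 intact copy of Wdfy4, so the controls were not wild type. Inguinal nodes were digested with collagenase B and DNase I and the cDC1 were sorted and profiled on Affymetrix Mouse Gene 1.0 ST arrays. The other 8 arrays hold Het and KO cDC1 of the non-draining node on the opposite flank, 4 of each. The labels do not give the allele, the part of Wdfy4 that was deleted, the age of the mice, or whether an array holds the cells of 1 mouse or of a pool. Separate mice are not stated, and p-values therefore measure the spread between the arrays of a group, part of which may be technical.

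The cDC1 lineage depends on the transcription factors IRF8 and BATF3. These cells take up dead tumour cells, carry the material to the draining node and show its peptides to CD8 T cells on MHC class I, a process called cross-presentation. WDFY4 is a large protein with a BEACH domain, a module found in proteins of vesicle traffic, and cDC1 need it to cross-present antigen that comes from cells. On arrival in a node, dendritic cells also receive signals from T cells and NK cells, among them interferon gamma, which induces the GTPases of cell-autonomous defence described below.

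The deposited values are normalized intensities, and they were compared as log2(intensity + 1). A difference is always the mean of the KO arrays minus the mean of the Het arrays on this scale, so that negative values are lower in KO, and it is given ± its standard error from limma (n = 4 against 4 arrays). The median intensity of an array lay between 38.6 and 40.8. In bulk RNA, fewer cells that express a gene and less RNA per cell cannot be told apart.

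The sorted cells carried the RNA of cDC1 in both genotypes. All 14 of 14 cDC1 markers were measured and none ranked below the 73.8th percentile of genes in any of the 8 arrays. Xcr1, the chemokine receptor that defines the subset, had intensities of 1645 to 2396 in the Het arrays and 1706 to 2138 in the KO arrays. RNA of other cells was also present. Cd3g, a subunit of the T cell receptor complex, ranged from 294.6 to 645.2 in Het and from 313.3 to 889.2 in KO. It never ranked below the 87.5th percentile, so rank alone does not set the cDC1 markers apart. The B cell gene Ms4a1 stayed between 26.1 and 46.5 in all 8 arrays. Array KO draining 2 stood apart from the others. Its deviations from the mean of its group had an SD over genes of 0.31, against 0.18 to 0.23 in the other 7 arrays, and its median correlation with the other draining arrays was 0.976, against 0.984 to 0.991. Values without that array are given beside the results that it moves most.

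Wdfy4 RNA itself was still detected in the KO arrays. On its brighter probe set the intensities of Het arrays 1 to 4 were 3150, 3450, 2766 and 2463, and those of KO arrays 1 to 4 were 2181, 2785, 2257 and 1786. The groups overlapped, since KO array 2 lay above Het arrays 3 and 4. The mean was 2957 ± 433 (SD, n = 4) in Het and 2252 ± 411 (SD, n = 4) in KO, a difference of -0.40 ± 0.18 that gave an exact two-sided permutation p of 0.0857, where the smallest p that 4 against 4 arrays allow is 0.0286. The dimmer probe set differed by -0.33, with an exact permutation p of 0.371. The array measures a signal across the gene, and without the position of the deletion these levels do not check the genotype.

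No gene passed the threshold of an adjusted p of 0.05 in limma: 0 of 19938 genes (0%) were called. An unadjusted p under 0.05 was found for 675 genes (3.39%), of which 337 (1.69%) were higher and 338 (1.70%) lower in KO. With no difference at any gene, a share of about 0.05 would fall under this threshold, more than the 3.39% found. In 167 genes (0.838%) all 4 KO arrays lay above all 4 Het arrays, and in 149 genes (0.747%) all 4 lay below. With independent arrays and no difference, groups apart in either direction have a probability of 0.0286, and both shares together lie below that. The difference was below 0 in 10146 genes (50.9%) and above 0 in 9792 (49.1%), with a median of -0.003. A difference larger than 1 in size was seen in 2 genes, both lower in KO and neither at an unadjusted p under 0.05. Every gene named from here on therefore failed the adjusted test over all 8 arrays, with a limma adjusted p of 0.265 for Gm4951 and of 1 for each of the others.

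The differences of arrays 1 and 2 were not those of arrays 3 and 4. Across the 19938 genes, the KO minus Het difference within arrays 1 and 2 and that within arrays 3 and 4 had a correlation of -0.13, and 45.3% of genes had the same sign in both. The genes share the arrays and are not independent replicates. Differences were wider over genes in arrays 1 and 2, with an SD of 0.25 against 0.18. The labels do not say what the numbers stand for. Genes are therefore shown with both values, and those that keep their direction are marked as such.

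**Figure D1:**
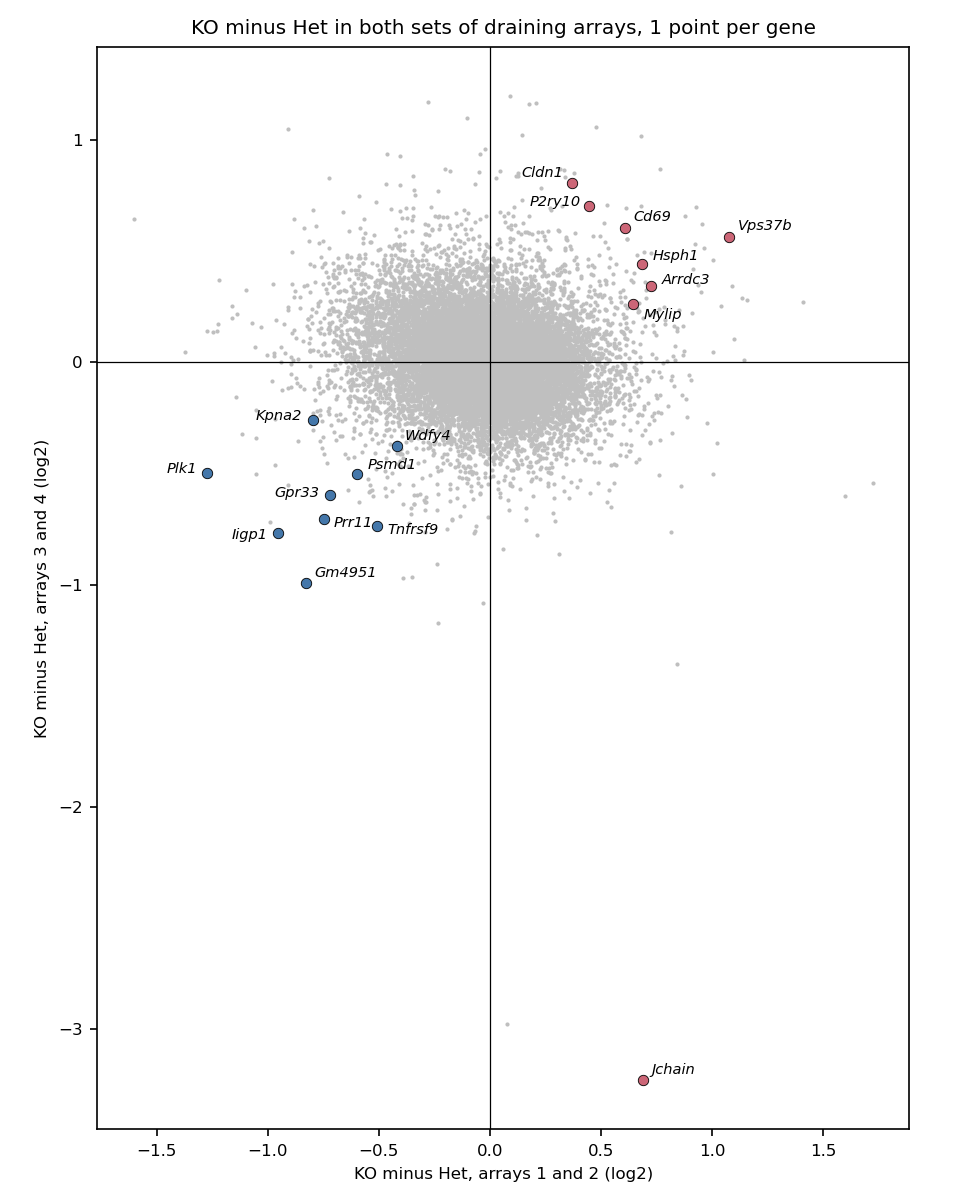
Each point is 1 of 19938 genes, with its KO minus Het difference (log2) in arrays 1 and 2 on the horizontal axis and in arrays 3 and 4 on the vertical axis; named genes are coloured by their sign in arrays 1 and 2. Gm4951, Plk1, Iigp1, Prr11 and Gpr33 lie below 0 on both axes, Vps37b, Cd69 and P2ry10 above 0 on both, and Jchain, a plasma cell gene, has a value of 0.69 in arrays 1 and 2 and of -3.23 in arrays 3 and 4.

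Within arrays 3 and 4 alone, 4 genes passed a limma adjusted p of 0.05, and they are named here after their values were seen. Clec4b2, a C-type lectin receptor of dendritic cells, differed by 1.16 ± 0.12 in these arrays (limma adjusted p = 0.0186) and by 0.18 in arrays 1 and 2. Dpep2, a membrane dipeptidase, differed by 1.10 ± 0.13 (limma adjusted p = 0.0409) and by -0.10. Stat4, the transcription factor downstream of the interleukin 12 receptor, differed by -1.08 ± 0.11 (limma adjusted p = 0.0186) and by -0.03. Only the GTPase gene Gm12250 among the 4 had groups that did not overlap over all 8 arrays. It differed by -0.97 ± 0.10 in arrays 3 and 4 (limma adjusted p = 0.0186) and by -0.35 in arrays 1 and 2. With 2 arrays a group, each of these calls rests on a spread estimated from few arrays.

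The gene of smallest p belonged to the interferon-inducible GTPases. Immunity-related GTPases (IRG) and guanylate-binding proteins (GBP) are induced by interferons and attack the vacuoles in which intracellular pathogens live. Gm4951, a predicted member of the IRG family on chromosome 18, had values of 5.43, 5.57, 5.28 and 5.67 in Het arrays 1 to 4 and of 4.83, 4.51, 4.63 and 4.35 in KO arrays 1 to 4. All KO arrays lay below all Het arrays, by -0.91 ± 0.15 on average (limma adjusted p = 0.265, unadjusted 1.33e-05), and the KO values lay under the array median. The difference was -0.83 in arrays 1 and 2, -0.99 in arrays 3 and 4, and between -0.995 and -0.833 when each array was left out in turn.

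Iigp1, the best studied IRG effector GTPase and on the same chromosome, had Het values of 5.71, 5.81, 5.58 and 6.43 and KO values of 5.08, 4.54, 5.37 and 5.10. The KO values lay near or under the array median, and these groups did not overlap either, with a difference of -0.86 ± 0.27. Gm12250, known as Irgb10 and encoded on chromosome 11, read 5.75, 5.81, 5.88 and 5.84 in Het and 5.64, 5.22, 4.95 and 4.83 in KO, a difference of -0.66 ± 0.17. Its 4 Het arrays were nearly level and all KO arrays lay below them. Irgm1, a regulator of the family, differed by -0.25 ± 0.12 and the guanylate-binding protein Gbp11 by -0.36 ± 0.18, both with overlapping groups. Without KO array 2 the Gbp11 value was -0.18, and Gbp11 lay under the array median in all 8 arrays.

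Of the 22 IRG and GBP genes listed, 13 were measured and 10 of these were lower in KO. The 3 genes above, Gm4951, Iigp1 and Gm12250, were at an unadjusted p under 0.05 with groups apart, against 1.70% and 0.747% of all genes. The median of the 13 was -0.17, against -0.003 over all genes, and it was -0.07 in arrays 1 and 2 and -0.27 in arrays 3 and 4. It lay between -0.26, without Het array 3, and -0.14, without KO array 2, when each draining array was left out in turn. The number of genes lower ranged from 7, without Het array 4, to 12, without KO array 1, and was 8 without KO array 2. In arrays 1 and 2, 7 were lower, and in arrays 3 and 4, 12 were. Gbp3, Gbp4 and Gbp5 had differences of 0.17, 0.00 and 0.04. IRG genes resemble each other in sequence, and how far their probe sets share signal was not tested.

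Other genes of the interferon response had medians nearer to 0, and whether they differ from the GTPases was not tested. Of 32 type I interferon response genes, 17 were lower and 15 higher in KO, with a median of -0.05. Eif2ak2, the RNA-activated kinase PKR, was the 1 member at an unadjusted p under 0.05 (3.12%, against 1.70% of all genes). It differed by -0.36 ± 0.16. Of 19 further interferon gamma response genes, 15 were lower, with a median of -0.10 that became 0.04 without KO array 2. Ifngr1, a chain of the interferon gamma receptor, was the 1 of them at an unadjusted p under 0.05 (5.26%, against 1.69% of all genes). It was higher in KO by 0.57 ± 0.23, or 0.37 without KO array 2, with overlapping groups.

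**Figure D2:**
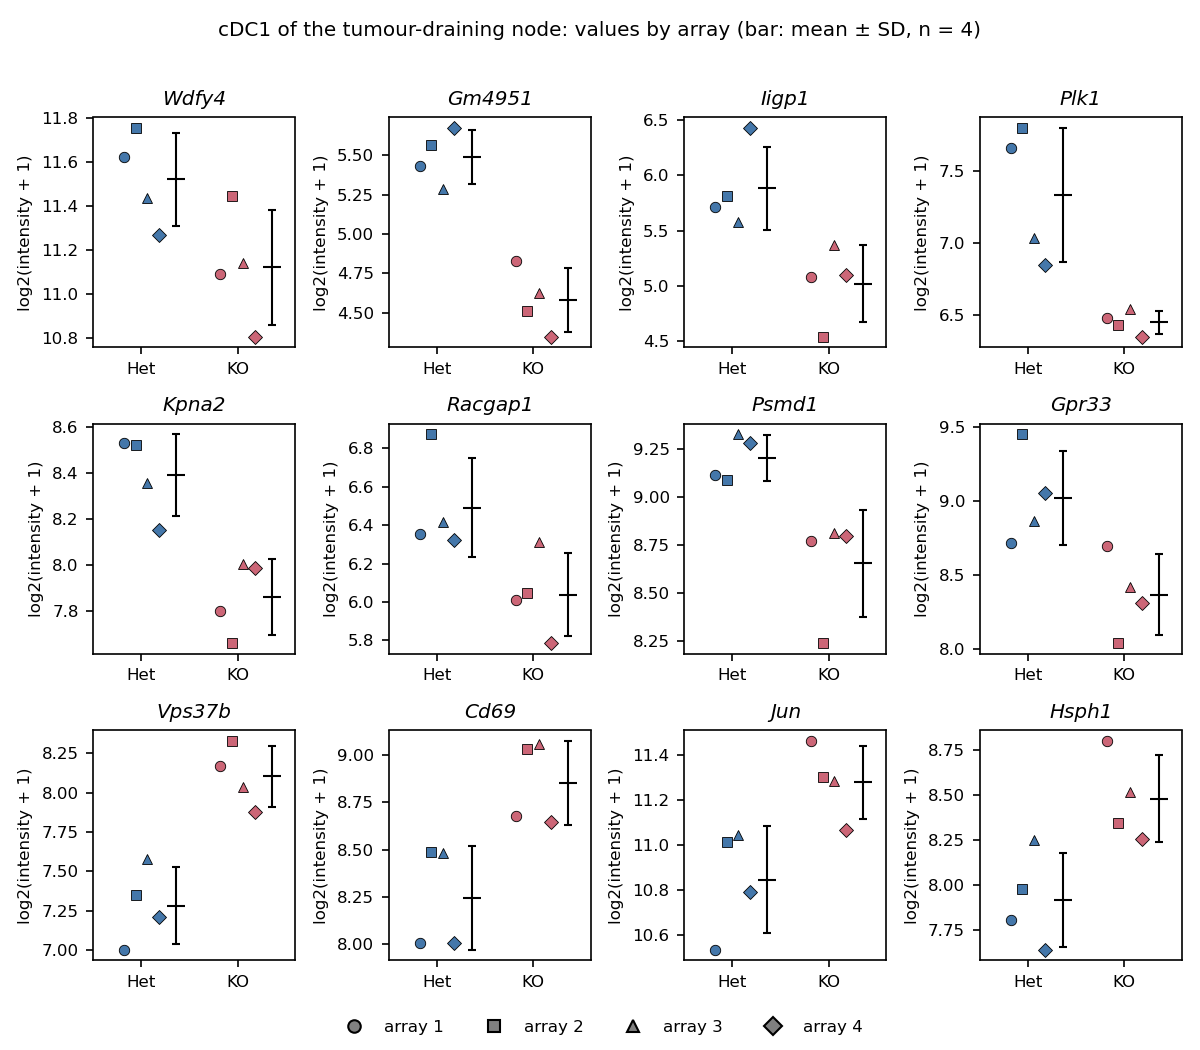
Each panel shows 1 gene as log2(intensity + 1) on the vertical axis, for 4 Het (blue) and 4 KO (red) draining arrays, with 1 symbol per replicate number and a bar at the mean ± SD (n = 4); vertical axes differ between panels and do not start at 0. All 4 KO points lie below all 4 Het points for Gm4951, Iigp1, Plk1, Kpna2, Racgap1, Psmd1 and Gpr33 and above them for Vps37b, Cd69, Jun and Hsph1, while the Wdfy4 groups overlap.

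Genes of mitosis were lower in KO cDC1 of the draining node. These genes build the spindle, attach chromosomes to it and divide the cell, and they are expressed while a cell passes through the G2 and M phases. Many of their promoters hold CCAAT boxes, the letters that the factor NF-Y binds, and the element TTTGAA, known as the cell cycle genes homology region (CHR) and bound by the DREAM and MuvB complexes. The promoters of the 4 mitosis genes whose KO arrays all lay below the Het arrays are shown because the data bear on them together, with that of Kpna2, which is described beside them. Each is the 250 bases before the transcription start from RefSeq on GRCm38.p6, written 5′ to 3′ on the strand of the gene, with CCAAT and TTTGAA or their reverse complements ATTGG and TTCAAA in capitals. They lie at chr7:122159185-122159434 (plus strand) for Plk1, chr19:37376132-37376381 (plus strand) for Kif11, chr7:80294226-80294475 (plus strand, 1 of 2 windows) for Prc1, chr15:99651657-99651906 (minus strand) for Racgap1 and chr11:106999526-106999775 (minus strand) for Kpna2.
Plk1: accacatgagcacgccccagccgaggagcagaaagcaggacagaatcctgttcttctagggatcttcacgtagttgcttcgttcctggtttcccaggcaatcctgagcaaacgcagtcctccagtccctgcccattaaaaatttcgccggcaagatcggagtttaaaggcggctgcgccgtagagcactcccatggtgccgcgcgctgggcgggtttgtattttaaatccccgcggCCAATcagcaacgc
Kif11: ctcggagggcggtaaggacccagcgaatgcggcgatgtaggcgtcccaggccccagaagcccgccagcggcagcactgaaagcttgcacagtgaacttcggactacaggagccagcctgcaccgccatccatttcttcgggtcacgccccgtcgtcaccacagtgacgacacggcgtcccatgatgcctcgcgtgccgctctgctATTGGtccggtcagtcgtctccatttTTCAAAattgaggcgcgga
Prc1: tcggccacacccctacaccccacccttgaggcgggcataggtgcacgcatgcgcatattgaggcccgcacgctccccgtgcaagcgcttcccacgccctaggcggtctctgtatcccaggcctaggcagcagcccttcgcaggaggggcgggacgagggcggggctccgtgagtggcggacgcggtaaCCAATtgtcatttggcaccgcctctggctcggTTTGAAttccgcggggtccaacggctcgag
Racgap1: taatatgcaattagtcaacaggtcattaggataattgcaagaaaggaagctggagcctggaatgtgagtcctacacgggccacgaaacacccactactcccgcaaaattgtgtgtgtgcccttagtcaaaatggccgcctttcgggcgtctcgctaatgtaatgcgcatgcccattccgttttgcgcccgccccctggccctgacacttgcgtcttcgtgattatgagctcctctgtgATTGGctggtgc
Kpna2: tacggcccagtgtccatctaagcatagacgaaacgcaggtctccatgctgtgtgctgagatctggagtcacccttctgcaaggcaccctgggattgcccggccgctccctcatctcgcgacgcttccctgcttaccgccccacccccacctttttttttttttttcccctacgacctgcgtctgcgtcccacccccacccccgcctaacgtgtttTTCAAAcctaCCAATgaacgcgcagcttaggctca

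All 5 windows hold a CCAAT box in 1 orientation or the other, and those of Kif11, Prc1 and Kpna2 also hold the CHR letters. The other Prc1 window, chr7:80294201-80294450, holds the CCAAT letters and not those of the CHR. In Plk1 the box starts 14 bases and in Racgap1 12 bases before the transcription start. Of the 35 mitosis genes with a promoter in the table, 26 (74.3%) had CCAAT on either strand within 250 bases, against 38.8% of the 15614 array genes with a promoter. TTTGAA was found for 14 (40%), against 15.7%. CCAAT was not particular to mitosis genes or to lists lower in KO. It was found for 57.6% of S phase, 52.6% of other immediate early and 44.4% of heat shock genes with a promoter. For proteasome and AP-1 genes the shares were 38.7% and 18.2%. Genes with several windows have more chances of a match, and a match of letters is a description, not a binding site.

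Plk1, the kinase that drives entry into mitosis and spindle assembly, had the largest difference of the list. It read 7.66, 7.80, 7.03 and 6.84 in Het arrays 1 to 4 and 6.48, 6.43, 6.54 and 6.34 in KO arrays 1 to 4. The KO arrays were level while the Het arrays spread over a range, with arrays 1 and 2 high. The difference was -0.88 ± 0.21 (limma unadjusted p = 0.000681, adjusted p = 1), with -1.27 in arrays 1 and 2 and -0.50 in arrays 3 and 4.

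Racgap1, which organises the cleavage furrow, read 6.35, 6.87, 6.42 and 6.32 in Het and 6.01, 6.05, 6.31 and 5.78 in KO, a difference of -0.45 ± 0.17. KO array 3 came close to the lowest Het array. Kif11, the motor that pushes the spindle poles apart, differed by -0.42 ± 0.21, and 1 Het array at 7.21 carried much of it, since the other 3 lay between 6.23 and 6.25 and the KO arrays between 5.94 and 6.19. Without Het array 1 its difference was -0.18. Prc1, which bundles microtubules between the separating chromosomes, lay under the array median in all 8 arrays and differed by -0.24 ± 0.11.

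Top2a, the topoisomerase that untangles chromosomes, read 7.23, 7.08, 6.80 and 6.61 in Het and 6.27, 6.69, 6.51 and 6.44 in KO. The groups overlapped through KO array 2 and Het array 4, and the difference was -0.45 ± 0.15. The kinetochore gene Nuf2 differed by -0.57 ± 0.20, the kinase gene Cdk1 by -0.38 and the anaphase activator Cdc20 by -0.35. Mki67, the proliferation marker Ki-67, differed by -0.33 at an unadjusted limma p of 0.263.

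Of 43 mitosis genes listed, 42 were measured, and 40 of them were lower in KO, against 50.9% of all genes. The 2 with a difference above 0 were Pttg1 and Bub1b, at 0.00 and 0.03. At an unadjusted p under 0.05 there were 9 lower (21.4%) and 0 higher, against 1.70% and 1.69% of all genes. In 4 of the 42 all KO arrays lay below all Het arrays, against 0.747% of all genes. The median difference was -0.22. It was -0.39 in arrays 1 and 2, with 39 lower, and -0.09 in arrays 3 and 4, with 31 lower, and 29 genes were lower in both. Without KO array 2 the median was -0.29 with 41 lower, and it lay between -0.32 and -0.17 when each draining array was left out in turn.

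The mean of the list by array shows where the difference lies. It was 6.42 and 6.41 in Het arrays 1 and 2, and 6.17 and 6.05 in Het arrays 3 and 4. In KO arrays 1 to 4 it was 5.86, 6.15, 6.06 and 5.96. Het arrays 1 and 2 stood above the rest, and Het array 4 lay below KO arrays 2 and 3, so the groups overlapped.

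Genes of DNA replication had smaller differences. Of 38 S phase genes measured, 30 were lower in KO, with a median of -0.12 that was -0.20 in arrays 1 and 2 and -0.03 in arrays 3 and 4, and -0.05 without Het array 2. Of these, 2 (5.26%) were at an unadjusted p under 0.05 and lower, against 1.70% of all genes, the helicase subunit Mcm7 at -0.39 ± 0.14 and the chromatin assembly factor Chaf1b at -0.32 ± 0.14, and 0 had groups apart. TTCGCGC, a core of E2F sites, was found on either strand in 18.2% of the 33 S phase genes with a promoter, against 2.09% of array genes.

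Among the genes of smallest p were Kpna2, Prr11 and Gen1. Kpna2, an importin that carries proteins into the nucleus and peaks in G2 and M, read 8.53, 8.52, 8.36 and 8.15 in Het and 7.799, 7.659, 8.003 and 7.988 in KO. The KO arrays all lay below the Het arrays, by -0.53 ± 0.12 (limma unadjusted p = 0.000302). The difference was -0.80 in arrays 1 and 2 and -0.26 in arrays 3 and 4. The 3 Kpna2 probe sets differed by -0.53, -0.47 and -0.52, and how far they share signal was not tested. Prr11, a gene of cell cycle progression, read 7.54, 7.52, 7.17 and 7.60 in Het and 6.60, 6.96, 6.90 and 6.47 in KO, a difference of -0.73 ± 0.19 that was -0.75 and -0.70 in the sets of arrays. Gen1, the nuclease that resolves crossed DNA strands, lay under the array median in KO and differed by -0.85 ± 0.22, while the 28 measured genes of crossed-strand repair had a median of -0.003. The other genes of nuclear import and export gave a median of -0.03 over 24 genes, with the tRNA exporter Xpot at -0.42 ± 0.17.

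**Figure D3:**
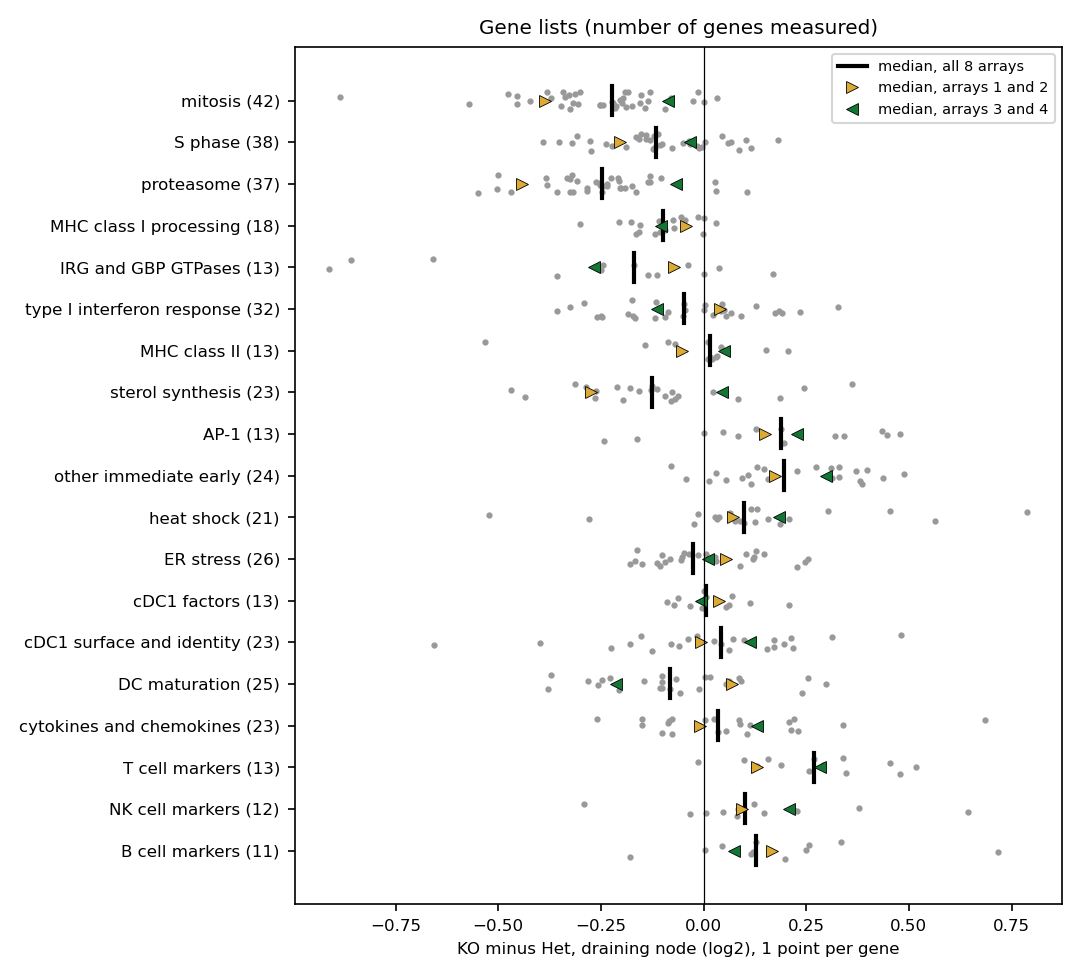
Each grey point is the KO minus Het difference (log2) of 1 gene in the draining node, grouped by list, with the number of genes measured in brackets; black bars are the medians over all 8 arrays and triangles the medians of the lower-numbered (1, 2) and higher-numbered (3, 4) arrays. The medians of mitosis (-0.22) and proteasome (-0.25) genes lie below 0 in both sets, and those of AP-1 (0.19) and other immediate early genes (0.20) above 0 in both.

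Genes of the proteasome were lower in KO, and part of this came with 1 array. The proteasome cuts proteins tagged with ubiquitin into peptides and supplies most ligands of MHC class I. Of 38 subunits and assembly genes listed, 37 were measured and 34 were lower in KO, with a median of -0.25. At an unadjusted p under 0.05 there were 5 lower (13.5%) and 0 higher, against 1.70% and 1.69% of all genes. Psmd1 and Psmc2 had groups apart, against 0.747% of all genes. The median was -0.44 in arrays 1 and 2 and -0.07 in arrays 3 and 4. Without KO array 2 it was -0.14, with 31 lower. Of the 37, 1 was then at an unadjusted p under 0.05, against 696 of all 19938 genes. The list means were 9.27, 9.51, 9.68 and 9.38 in Het and 9.15, 8.82, 9.41 and 9.47 in KO, where KO array 2 is the lowest and KO arrays 3 and 4 lie within the Het range.

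Psmd1, the largest subunit of the regulatory particle, read 9.12, 9.09, 9.33 and 9.28 in Het and 8.77, 8.24, 8.81 and 8.80 in KO. The 4 KO arrays lay below the Het arrays, and KO array 2 was the lowest. The difference was -0.55 ± 0.13 (limma unadjusted p = 0.000517) and -0.41 without KO array 2. Psmc2, an ATPase of the same particle, differed by -0.25 ± 0.12 and kept this size without that array, at -0.27. The subunits Psmd7, Psmc4 and Psmc6 differed by -0.47 ± 0.17, -0.50 ± 0.21 and -0.50 ± 0.22, and by -0.28, -0.32 and -0.26 without KO array 2.

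Of 18 genes of MHC class I loading, 16 were lower with a median of -0.10, which became 0.03 without KO array 2 and -0.16 without KO array 4. Tap1 and Tap2, which pump peptides into the endoplasmic reticulum, differed by -0.18 and -0.21 with overlapping groups, and by -0.09 and -0.08 without KO array 2. Ide, a protease that also cuts antigens, was the 1 member at an unadjusted p under 0.05 (5.56%, against 1.70% of all genes). It differed by -0.30 ± 0.14. The 13 MHC class II genes had a median of 0.02, with the endosomal protease Lgmn at -0.53 ± 0.25 and at -0.21 without KO array 2. Of 38 genes of cross-presentation and vesicle traffic, 22 were lower, with a median of -0.01, and without KO array 2 the median was 0.04 with 25 higher. At an unadjusted p under 0.05 were 3 (7.89%, all lower, against 1.70% of all genes), 1 of them the targeted gene Wdfy4 itself. The others were the small GTPase Rab38 at -0.41 ± 0.18, or -0.25 without KO array 2, and the ATPase Vcp, which pulls proteins out of membranes, at -0.28 ± 0.13. Without KO array 2, 1 of the 38 genes was at an unadjusted p under 0.05, against 696 of all 19938 genes.

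**Figure D4:**
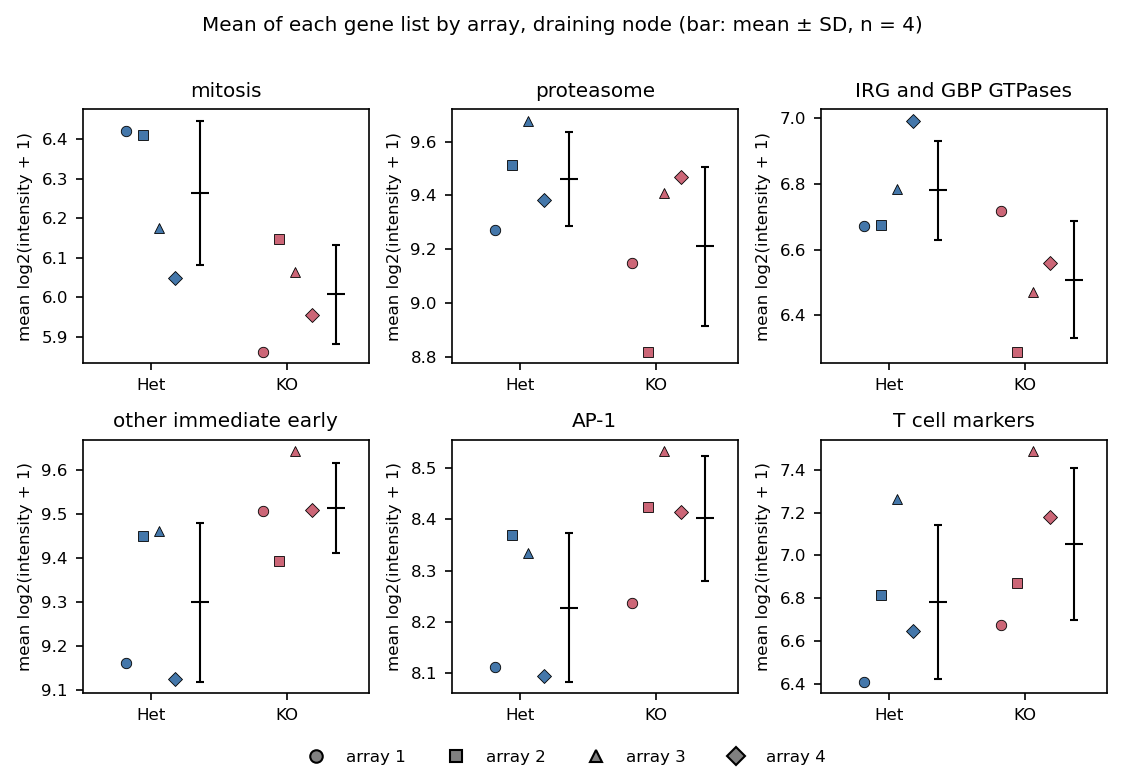
Each panel shows the mean log2(intensity + 1) over the measured genes of 1 list for each draining array, with 4 Het (blue) and 4 KO (red) arrays, 1 symbol per replicate number, and a bar at the mean ± SD (n = 4); axes do not start at 0. Het arrays 1 and 2 are highest for mitosis at 6.42 and 6.41, KO array 2 is lowest for the proteasome at 8.82, and the T cell marker means overlap between genotypes.

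Immediate early genes were higher in KO. These genes respond within minutes to signals or to stress, including the digestion and sorting of tissue, and their products often form or restrain AP-1, a dimer of JUN and FOS proteins. Jun read 10.53, 11.01, 11.04 and 10.79 in Het and 11.46, 11.30, 11.28 and 11.07 in KO. All KO arrays lay above all Het arrays, although KO array 4 at 11.07 and Het array 3 at 11.04 were close. The difference was 0.43 ± 0.14, with 0.61 in arrays 1 and 2 and 0.26 in arrays 3 and 4. Jund, at 0.19 ± 0.08, also had groups apart, while Junb at 0.32 ± 0.12 and Fosl2 at 0.48 ± 0.19 overlapped.

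Of 13 AP-1 family genes, 11 were higher in KO, against 49.1% of all genes, and 4 were at an unadjusted p under 0.05, against 1.69%. Their median was 0.19, with 0.15 in arrays 1 and 2 and 0.23 in arrays 3 and 4, and it was 0.10 without KO array 3. Batf3, the member that cDC1 need for their development, differed by 0.00, and Batf by -0.24. Among 24 other immediate early genes 22 were higher, with a median of 0.20 and with 6 at an unadjusted p under 0.05 (25%, against 1.69% of all genes). Without KO array 2 all 24 of them were higher, with a median of 0.24. Dusp5, a phosphatase that restrains ERK, read 7.13, 7.47, 7.59 and 7.39 in Het and 7.78, 7.66, 7.70 and 7.76 in KO, a difference of 0.33 ± 0.10 with groups apart. Rhob, Klf2 and Btg2 differed by 0.49 ± 0.21, 0.31 ± 0.12 and 0.31 ± 0.13, with overlapping groups. The list mean was 9.16, 9.45, 9.46 and 9.13 in Het and 9.51, 9.39, 9.64 and 9.51 in KO, so Het arrays 1 and 4 were the low ones. TGACTCA, an AP-1 site, was found on either strand in 0% of the 11 AP-1 genes with a promoter. The share was 5.26% of the 19 other immediate early genes with a promoter, against 4.75% of array genes.

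Most heat shock genes were higher in KO, though not all. Hsph1, the HSP110 chaperone, read 7.80, 7.97, 8.25 and 7.64 in Het and 8.80, 8.35, 8.52 and 8.25 in KO, a difference of 0.56 ± 0.17. KO array 4 and Het array 3 were nearly level. Dnajb1, the partner of HSP70, differed by 0.45 ± 0.17 and the cochaperone Bag3 by 0.30 ± 0.11. Hspa1a, an HSP70 gene with a nearly identical neighbour, differed by 0.79 at an unadjusted limma p of 0.0383 and is uncertain for that reason. Chordc1, a partner of HSP90, differed in the other direction, by -0.52 ± 0.21. Over 21 genes, 17 were higher and the median was 0.10, or 0.06 without KO array 3 or without Het array 4. In both sets of arrays 7 of the 21 were higher. At an unadjusted p under 0.05 there were 4 higher (19%) and 1 lower (4.76%), against 1.69% and 1.70% of all genes. GAA and TTC with NN between them, a core of heat shock elements, was found on either strand in 38.9% of the 18 heat shock genes with a promoter, against 6.87% of array genes.

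Chosen for a small p or for a difference of the same sign in both sets of arrays were Cd69, Cxcr4, P2ry10 and Arrdc3. Cd69, which holds cells in a node by removing the receptor for sphingosine 1-phosphate, read 8.003, 8.486, 8.480 and 8.008 in Het and 8.675, 9.033, 9.056 and 8.646 in KO. The groups were apart by 0.61 ± 0.17, and both sets of arrays gave 0.61. Cxcr4, the receptor for CXCL12, read 11.46, 11.24, 11.45 and 11.28 in Het and 12.09, 11.78, 11.55 and 11.77 in KO, a difference of 0.44 ± 0.11. P2ry10, a receptor for lysophosphatidylserine, differed by 0.57 ± 0.14, with Het arrays between 7.48 and 8.04 and KO arrays between 8.28 and 8.41. Arrdc3, an arrestin that sorts receptors for degradation, read 8.07, 8.30, 8.48 and 8.50 in Het and 8.95, 8.87, 8.82 and 8.85 in KO, a difference of 0.53 ± 0.14.

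Kcna3, the voltage-gated potassium channel of lymphocytes, read 7.03, 7.09, 7.09 and 6.77 in Het and 7.41, 7.38, 7.41 and 7.32 in KO. The KO arrays were level and above all Het arrays, by 0.39 ± 0.10, which was 0.34 and 0.44 in the sets of arrays. Txk, a kinase of the Tec family known from T and NK cells, read 5.51, 5.94, 6.40 and 5.90 in Het and 6.46, 6.84, 6.68 and 6.69 in KO, a difference of 0.73 ± 0.22. Ipcef1 and Pitpnc1 were also apart, at 0.48 ± 0.22 and 0.43 ± 0.15, and at 0.34 and 0.32 without KO array 2.

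T cell markers were on average higher in the KO arrays as well. Of 13 T cell markers measured, 12 were higher in KO with a median of 0.27, and 0 were at an unadjusted p under 0.05. Cd4 alone had groups apart, at 0.26 ± 0.14, against 0.838% of all genes apart in that direction. The mean of the markers was 6.41, 6.82, 7.26 and 6.65 in Het and 6.68, 6.87, 7.49 and 7.18 in KO. Het array 3 had a higher mean than KO arrays 1, 2 and 4. The median of the markers lay between 0.13, without KO array 3, and 0.43, without KO array 1, when each array was left out in turn. NK markers were higher in 10 of 12 with a median of 0.10, which lay between 0.06, without KO array 3, and 0.21, without KO array 1. B cell markers were higher in 10 of 11 with a median of 0.13, which lay between 0.07, without Het array 2, and 0.29, without Het array 4, where Fcer2a, the low affinity IgE receptor, was at 0.72 ± 0.31. How far such cells contributed to the values of Kcna3, Txk, Cd69 or Cxcr4 was not tested.

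Vps37b and Mylip were also among the genes of smallest p. Vps37b, a subunit of the ESCRT-I complex that sorts ubiquitin-tagged receptors into endosomes, read 7.001, 7.349, 7.576 and 7.208 in Het and 8.17, 8.33, 8.04 and 7.88 in KO. The 4 KO arrays all exceeded the 4 Het arrays, by 0.82 ± 0.20 on average (limma unadjusted p = 0.000827), with 1.08 in arrays 1 and 2 and 0.57 in arrays 3 and 4. Its relatives Vps37c and Mvb12b, of the same complex, differed by 0.27 ± 0.12 and 0.40 ± 0.18 with overlapping groups, and by 0.16 and 0.35 without KO array 2. Vps37a differed by -0.15, or by -0.10 without KO array 2. These 3, Vps37b, Vps37c and Mvb12b, were the members at an unadjusted p under 0.05 among 34 ESCRT and endosome genes (8.82%, against 1.69% of all genes), of which 21 were lower, with a median of -0.05 that was 0.07 without KO array 2.

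Mylip, a ubiquitin ligase that marks the LDL receptor for degradation and is induced by liver X receptors, read 10.01, 9.89, 10.05 and 9.99 in Het and 10.72, 10.46, 10.21 and 10.36 in KO. The difference was 0.45 ± 0.11 with groups apart. It was the 1 gene at an unadjusted p under 0.05 among 12 liver X receptor targets (8.33%, against 1.69% of all genes). Their median was 0.05, or 0.12 without KO array 2, and Abca1, the cholesterol exporter among them, differed by 0.12. Insig1, which holds back the activation of sterol synthesis, differed by 0.36 ± 0.12, with 0.62 in arrays 1 and 2 and 0.11 in arrays 3 and 4. The sterol demethylation genes Cyp51 and Msmo1 differed by -0.29 ± 0.11 and -0.47 ± 0.21. Of 23 sterol synthesis genes, 18 were lower with a median of -0.13, but this was -0.28 in arrays 1 and 2, 0.04 in arrays 3 and 4, 0.07 without KO array 2 and -0.24 without KO array 4. Msmo1 differed by -0.94 in arrays 1 and 2, by 0.00 in arrays 3 and 4 and by -0.24 without KO array 2.

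The transcription factors of cDC1 did not separate the genotypes. Over 13 of them the median difference was 0.01, 8 were higher, and 0 were at an unadjusted p under 0.05. Irf8 differed by -0.03 and Batf3 by 0.00. Of 23 surface and identity genes, 13 were higher with a median of 0.04, or -0.01 without KO array 2, and Clec9a, the receptor for dead cells, differed by 0.06 and Xcr1 by -0.15.

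Gpr33, an orphan receptor expressed in dendritic cells, was the member of this list with the smallest p. It read 8.72, 9.45, 8.86 and 9.06 in Het and 8.70, 8.04, 8.42 and 8.31 in KO, a difference of -0.66 ± 0.17. KO array 1 was level with Het array 1, and the other KO arrays lay clearly below. Cd207, the lectin langerin, found in cDC1 of some tissues and in Langerhans cells, differed by 0.48 ± 0.19, by 0.12 in arrays 1 and 2 and by 0.84 in arrays 3 and 4. Cldn1, a tight junction protein of skin dendritic cells, read 9.17, 9.15, 9.13 and 9.04 in Het and 9.69, 9.36, 9.93 and 9.86 in KO. The Het arrays were level and all KO arrays lay above them, by 0.59 ± 0.16. The keratinocyte and Langerhans gene Epcam stayed between intensities of 25.6 and 37.3 in all 8 arrays and differed by 0.07 ± 0.12. Of 5 Langerhans markers measured, 4 were higher in KO, with a median of 0.22. It lay between 0.10, without KO array 1, and 0.41, without KO array 4. At an unadjusted p under 0.05 were 2 of the 5 (40%, both higher, against 1.69% of all genes). How far such cells contributed was not tested.

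Genes of dendritic cell maturation were not separated by genotype. Of 25 measured, 16 were lower with a median of -0.08, which was 0.07 in arrays 1 and 2, -0.21 in arrays 3 and 4 and 0.07 without KO array 2, and 0 were at an unadjusted p under 0.05. Ccr7, the receptor that guides dendritic cells to nodes, differed by 0.06 and the costimulatory ligands Cd86, Cd80 and Cd70 by 0.06, 0.24 and -0.37, with Cd70 at -0.14 without KO array 2. Tnfrsf9, the receptor 4-1BB, read 8.91, 8.92, 9.20 and 9.40 in Het and 8.88, 7.94, 8.40 and 8.73 in KO, a difference of -0.62 ± 0.22, or -0.44 without KO array 2. Of 23 cytokine and chemokine genes, 14 were higher with a median of 0.04, or 0.10 without KO array 2. Ccl3, a chemokine for T cells and monocytes, was the 1 of them at an unadjusted p under 0.05 (4.35%, against 1.69% of all genes). It differed by 0.68 ± 0.27, by 0.20 in arrays 1 and 2 and by 1.17 in arrays 3 and 4.

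Some genes of smallest p belonged to none of these lists. Wdr5, a subunit of complexes that methylate histone H3, read 6.09, 6.17, 6.16 and 6.13 in Het and 5.67, 5.84, 5.80 and 5.77 in KO. Both groups were tight and apart, by -0.37 ± 0.10, with -0.38 and -0.36 in the sets of arrays. Gnrh1, a hormone gene, differed by -0.56 ± 0.15, the zinc finger gene Zfp777 by -0.44 ± 0.13 and the channel gene Calhm6 by -0.54 ± 0.18, all with groups apart. Fn3krp, a kinase that repairs sugar-modified proteins, differed by -0.72 ± 0.18, with -1.12 in arrays 1 and 2 and -0.32 in arrays 3 and 4. Mxra8 and Myl7 differed by -0.58 ± 0.15 and -0.45 ± 0.12. The sorting nexin gene Snx25 differed by -0.65 ± 0.18 with overlapping groups, by -1.14 in arrays 1 and 2 and by -0.15 in arrays 3 and 4.

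On the other side, Nectin3, an adhesion molecule, differed by 0.32 ± 0.08 and L3hypdh, an enzyme of hydroxyproline breakdown, by 0.40 ± 0.10, both from levels near or below the array median. Spry2, an inhibitor of growth factor signalling that lay under the array median in all 8 arrays, differed by 0.45 ± 0.12, the tRNA modification gene Tyw1 by 0.38 ± 0.10 and Ints6l by 0.59 ± 0.20. The histone gene H2bc22 differed by 0.47 ± 0.12 and by 0.32 without KO array 2. Ifi214, of the interferon-inducible p200 family, differed by 0.69 ± 0.18, also under the array median in all 8 arrays and with a KO array within the Het range.

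The same contrast in the non-draining node uses other arrays and shows whether a difference was seen there too. The labels do not say whether the nodes of both flanks came from the same mice. The main fit and the p-values for the difference between nodes took all arrays as independent. With arrays of the same genotype and number taken as a block, limma gave a correlation within blocks of 0.198. A difference of the same sign in both nodes is therefore not an independent replication. Gm4951 differed by 0.01 ± 0.15 in the non-draining node, Plk1 by 0.15 ± 0.21, Kpna2 by 0.00 ± 0.12 and Iigp1 by 0.15 ± 0.27. The difference between nodes had unadjusted limma p-values of 0.000447, 0.00318, 0.00495 and 0.0181. Vps37b and Gpr33 differed by -0.17 and 0.32 in the non-draining node, with unadjusted limma p-values for the difference between nodes of 0.00293 and 0.000998. These genes were named for their draining-node differences, which are part of the difference between nodes. That choice alone favours small p-values here. After adjustment 0 genes passed for the difference between nodes in limma, and 463 (2.32%) were at an unadjusted p under 0.05.

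List medians are given for both nodes side by side. Of 42 mitosis genes 33 were higher in KO in the non-draining node, with a median of 0.10 against -0.22 in the draining node, and 11 were at an unadjusted p under 0.05 for the difference between nodes, against 2.32% of all genes. S phase genes had 0.11 against -0.12, with 5 such genes, and IRG and GBP genes 0.10 against -0.17, with 4. T cell markers had -0.37 against 0.27, with 13 of 13 lower in the non-draining node. Sterol synthesis genes had 0.10 against -0.13 and type I interferon genes 0.16 against -0.05. Over the 37 lists, 19 had a median of the same sign in both nodes. Proteasome genes had -0.09 and -0.25, AP-1 genes 0.18 and 0.19, and other immediate early genes 0.18 and 0.20. Hsph1 differed by 1.00 in the non-draining node and Jun by 0.57, both more than in the draining node, with unadjusted limma p-values for the difference between nodes of 0.0806 and 0.518. Tnfrsf9, Psmd1 and Arrdc3 also kept their direction in the non-draining node, at -0.76 ± 0.22, -0.32 ± 0.13 and 0.37 ± 0.14. Their unadjusted limma p-values for the difference between nodes were 0.661, 0.223 and 0.411.

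**Figure D5:**
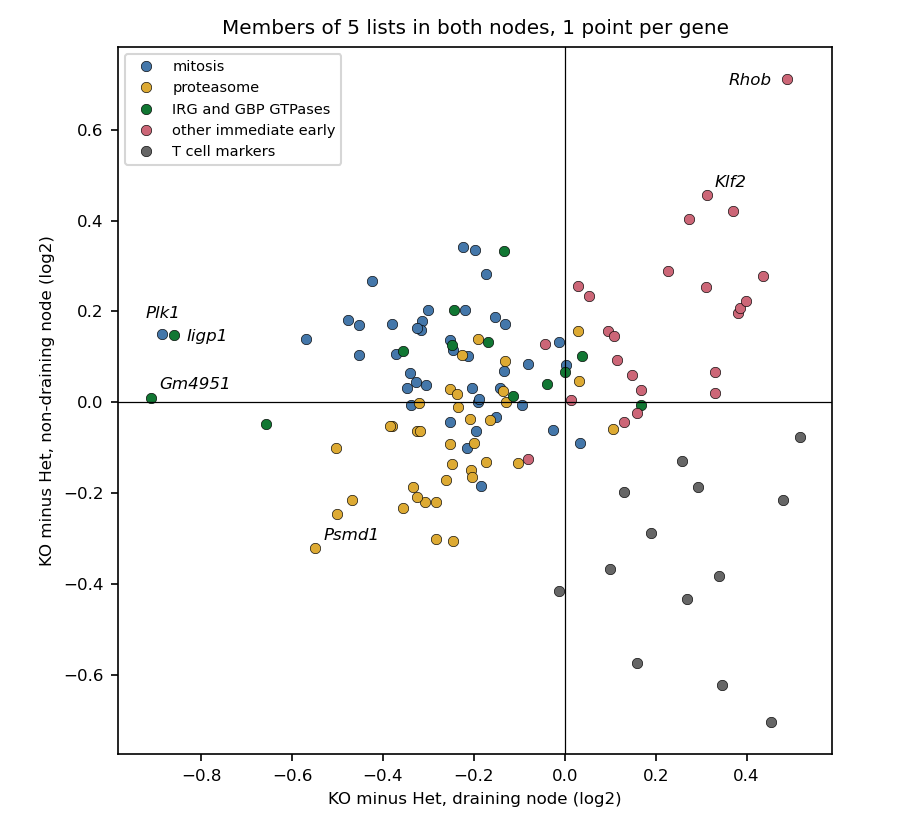
Each point is 1 gene of 5 lists, with its KO minus Het difference (log2) in the draining node on the horizontal axis and in the non-draining node on the vertical axis. Mitosis genes lie mostly left of 0 and above 0 (medians -0.22 and 0.10), proteasome genes left and below (-0.25 and -0.09), other immediate early genes right and above (0.20 and 0.18) and T cell markers right and below (0.27 and -0.37).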

How the data were processed

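The deposited intensity values per probe set had been normalized by the authors with RMA, which the submitters' processing notes name without a version. The table is linear, from 3.327 to 16300.089 over 35556 probe sets, and no 2 arrays were identical. RMA gives all arrays 1 distribution and compresses dim probe sets, so a shift of all genes together would not be seen and differences of dim genes are understated. The number of arrays limits the precision, and the median standard error was 0.12.

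Values were taken as log2(intensity + 1). The platform annotation gave 1 gene symbol to 21789 probe sets, several to 1621 and no symbol to 12146. The brightest probe set stood for a gene (19938 genes, of which 999 had a choice). Limma 3.58.1 in R 4.3.3 fitted the 4 groups in all 16 arrays (12 residual degrees of freedom), two-sided, with Benjamini-Hochberg adjustment over all genes and a threshold of 0.05. Groups and replicate numbers came from the sample titles. Wdfy4 also had an exact permutation test over 70 splits. Gene lists are described by counts and medians without a test, and a member counts as higher or lower by the sign of its difference. Scripts were tested on simulated data.

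The members and lists were chosen with earlier results of these data known. Named genes are Wdfy4, the 12 of smallest p in each direction, 8 in each direction with the largest smaller difference of both sets of arrays among genes with groups apart and a mean log2 value of at least 6, and from each list the members of smallest p, at most 4, or every member where 8 or fewer were measured. The rule left out predicted genes (except Gm4951), small RNA genes and receptor segments. List members beyond it (among them Kif11, Prc1, Psmc2, Gm12250, Cdk1, Cdc20, Mki67, Hspa1a and markers given by level) were chosen after their values were seen. Promoter windows are RefSeq's on GRCm38.p6, searched on both strands. Alternatives changed the pseudocount, centring, normalization, filter, probe set rule, variance model, weights, blocks and arrays.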

Additional observations from a re-analysis of the deposited data

Results flagged for a closer look

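Within the groups of 4 arrays, 1 array lay far from the other 3 in 12 groups, out of 164 for genes and 74 for list means, where chance gives about 1 in 20. KO array 2 accounts for 5 of the 12. It read 8.24 for Psmd1 (others 8.77 to 8.81), 6.18 for H2bc22 (others 5.57 to 5.61) and 8.84 for Vps37c (others 8.36 to 8.41). Its list mean was 7.79 for ESCRT and endosome genes (others 8.05 to 8.08) and 5.60 for crossed-strand repair genes (others 5.70 to 5.71).

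Het array 2 read 6.87 for Racgap1 (others 6.33 to 6.42) and 7.15 for Prn (others 5.92 to 6.00), and had a mean of 5.22 over the potassium channel genes (others 5.28 to 5.29). Prn differed by -0.72 ± 0.39 with groups apart. Het array 1 read 7.21 for Kif11 (others 6.23 to 6.25), Het array 3 read 8.93 for Psmd7 (others 8.54 to 8.58), Het array 4 read 6.05 for Mxra8 (others 5.59 to 5.67), and KO array 3 read 5.04 for Myl7 (others 4.88 to 4.90).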

How the results depend on the processing

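Under 23 alternatives the adjusted limma counts stayed at 0 higher and 0 lower, except within arrays 3 and 4, where 2 were higher and 2 lower. The difference between nodes gave 0 in the 21 that hold both nodes. Counts at an unadjusted p under 0.05, higher and lower, were 213 and 221 in a fit of the 8 draining arrays only, 197 and 196 without dim genes (fewer genes tested), 820 and 715 within arrays 3 and 4, and 401 and 752 within arrays 1 and 2. With each array left out in turn they ranged from 305 to 422 and from 333 to 471. With the replicate block they were 474 and 474, and with it in the 8 draining arrays (chosen after seeing the data) 288 and 258; it called 0 genes after adjustment. Same-numbered arrays deviated together with correlations of -0.06, 0.11, 0.42 and 0.02 over genes, and 1 of 4 Het arrays correlated best with its own number, so the numbers were not taken as pairs. Wdfy4 lay between -0.51 and -0.29 with each array left out.

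Of 1854 values of 81 genes, those given here except the markers of other cells and 26 described by single values, 2 changed sign: Msmo1 was 0.004 within arrays 3 and 4 and Nfil3 -0.236 within arrays 1 and 2; the cause was not tested. Of the 26, 10 changed sign within a set of arrays, 9 under another alternative, and 14 under none. The blocks, the variance model and the fit of the 8 draining arrays only leave a difference as it is. Many of the 81 genes were chosen for a small p or for the same sign in both sets of arrays. The small number of sign changes among them was therefore partly fixed in advance. Medians of 14 of 37 lists, those of mitosis, S phase, IRG and GBP, proteasome, AP-1 and other immediate early genes among them, kept their sign throughout. Dim genes are limited by signal near background.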
